A study of Homo sapiens with 6 samples.

Results

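The comparison described here is that of cultures with a BTN1A1 expression vector and cultures with an empty vector (EV), both without interferon-gamma. It rests on 2 of the 6 libraries of the series, chosen by the treatment label that says no interferon-gamma was given. Both cultures are labelled PC3, a widely used human prostate carcinoma line first grown from a metastasis in bone, and both untreated libraries carry a 48 h label. The other 4 libraries hold the same vectors after 24 or 48 h of interferon-gamma at 100 ng/ml, 1 library per vector and time. RNA was measured on the nCounter PanCancer IO 360 panel, which counts fluorescent barcodes on captured RNA without amplification. The labels say that cells were transfected, and nothing on clones or on how long the vector was kept.

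BTN1A1 is a butyrophilin, a membrane protein of milk fat whose family resembles the B7 proteins that T cells bind. Of the 770 probes, 0 measure it, so the transfected gene itself could not be followed, and the libraries are called those labelled BTN1A1. A carcinoma culture is recognised by the genes its cells keep on: adhesion and matrix genes mark its lineage, growth factor and early response genes its signalling, and enzymes its use of glucose and amino acids. PC3 is known to have lost STAT3, and it grows without androgen receptor signalling.

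Total counts were 290097 in the untreated library labelled BTN1A1 and 286341 in the untreated EV library, within a range of 221633 to 441611 over the 6 libraries. The panel's 20 housekeeping genes set the scale of each library through their geometric mean, values under 20 were raised to 20, and the 672 probes with at least 20 scaled counts in 1 of the 2 libraries were compared. The other 98 were below that level in both. Each side is 1 library, so the difference has no replicate check and no p-value of its own. The housekeeping genes give a measure of its looseness: they ranged from a log2 difference of -2.43 for the transferrin receptor TFRC to 1.59 at the high end, with 6 of the 20 at least 2-fold apart. Probes for 95 T, NK, B, myeloid, endothelial and fibroblast markers, which the cultures should lack, had a median of 19 counts in the untreated library labelled BTN1A1 (1 to 50) and 26 in the untreated EV library (3 to 140). Values near those are treated as background.

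Between the untreated libraries, 76 of the 672 probes (11.3%) were at least 2-fold higher in the library labelled BTN1A1 and 187 (27.8%) at least 2-fold lower. The median log2 difference over all 672 was -0.48, so that differences are best read against that shift, and counts of list members against those shares. Scaling to equal medians gave 116 higher and 120 lower, and TMM scaling 113 and 118. The 4 interferon-gamma libraries share no library with this pair and showed much of the same pattern. Of the 76 higher probes 45 (59.2%) were at least 2-fold higher in both the 24 h and the 48 h pair, against 7.59% of all 672. Of the 187 lower probes 125 (66.8%) were at least 2-fold lower in both, against 25.3% of all 672. Across the 602 probes compared in all 3 pairs, Pearson's r between the log2 differences of the untreated pair and those of the 24 h pair was 0.81, and 0.80 with the 48 h pair. These are correlations across genes on 1 panel, with housekeeping scaling in common, and genes are not independent replicates. The scatter of both untreated libraries shows the spread of these differences.

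**Figure D1:**
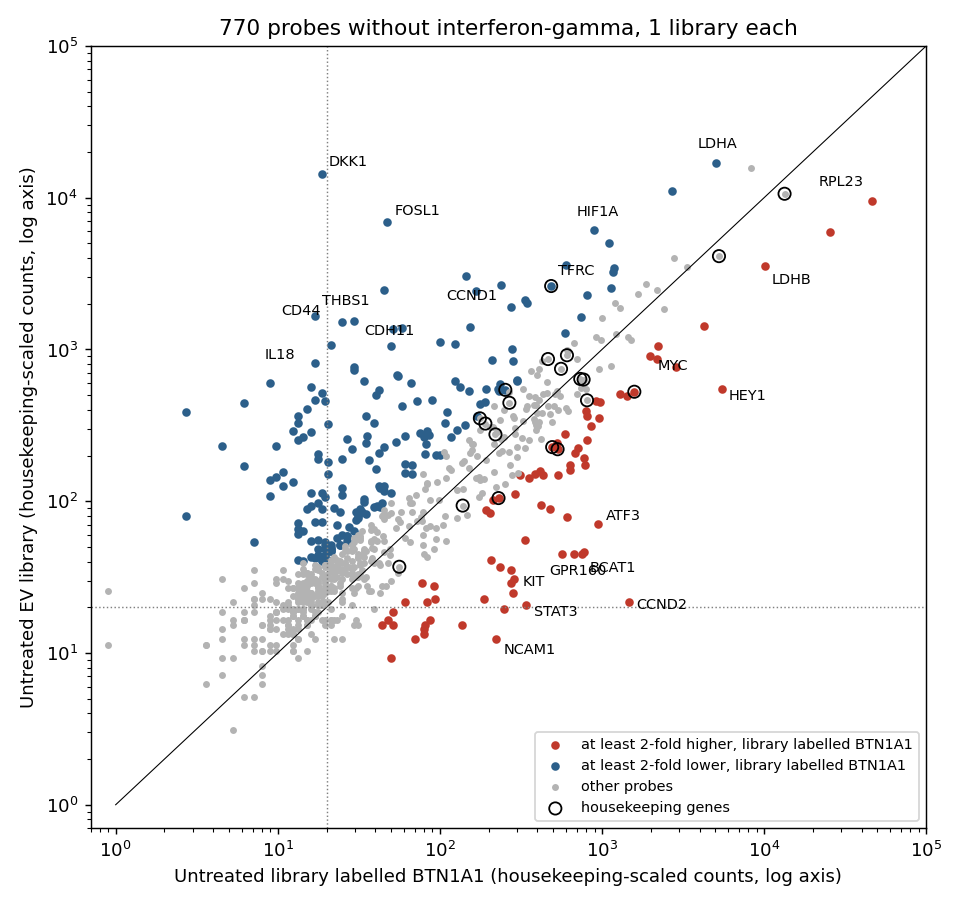
Housekeeping-scaled counts of the 770 probes in the untreated library labelled BTN1A1 (horizontal, log axis) and the untreated EV library (vertical, log axis), 1 point per probe. Red points are the 76 probes at least 2-fold higher and blue points the 187 at least 2-fold lower in the library labelled BTN1A1, black rings the 20 housekeeping genes, dotted lines the level of 20, and the solid line equality. DKK1 and FOSL1 lie farthest above the line and CCND2 farthest below it.

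To add a measure of error, vector was also fitted over all 6 libraries with condition (untreated, 24 h, 48 h) as a second term, so that the 3 conditions serve as repeats. By the quasi-likelihood test of edgeR, with p-values adjusted by Benjamini-Hochberg, the libraries labelled BTN1A1 had 78 of 669 probes higher (11.7%) and 205 lower (30.6%). Among the 76 probes higher in the untreated pair 64 passed in the same direction, and of the 187 lower 148, with 0 in the other direction. The untreated pair that picked these probes is part of the fit, so this agreement was partly built in and is no separate check. This fit left 2 residual degrees of freedom, and nothing says that the libraries of a vector came from separate transfections. Its p-values therefore reflect only how these 6 libraries scatter, and that scatter may be technical. The fit also has no term for a response to interferon-gamma that differs between the vectors. Such a difference enters both the edgeR value and its scatter. For genes that respond, the edgeR value is thus not the untreated difference, and a gene may miss the threshold because its pairs differ. The test also pools scatter across the 669 probes, so its p-values rest on more than the 2 residual degrees of freedom of each probe. Values called "edgeR" below are log2 differences over the 3 conditions, with an SE restating the test. The others are log2 differences of the untreated pair. Counts are as deposited, in the order untreated, 24 h and 48 h. Where libraries of the vectors are said not to overlap, the share of all probes without overlap was not counted. Most of those genes were picked for large differences, so a lack of overlap does not set them apart from the panel.

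STAT3, the transcription factor of IL-6 family cytokines, which PC3 is known to lack, was at background in EV and well above it in the libraries labelled BTN1A1. It had 383, 593 and 444 counts in the libraries labelled BTN1A1, against 20, 10 and 17 in EV. No library labelled BTN1A1 overlapped an EV library. The untreated difference was 4.05 (16.6-fold, counting interval 3.41 to 4.78), and the edgeR difference was 4.83, SE 0.42, adjusted p 7.39e-05. The EV libraries thus follow what is known of PC3 at this gene, and those labelled BTN1A1 go against their cell line label. The labels name 1 line for all 6 libraries. An effect of the BTN1A1 vector and a difference in origin between the cultures cannot be told apart, and this holds for every difference below. In bulk RNA, fewer cells of a type and less RNA per cell cannot be told apart either.

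Of the 11 measured genes on the list of PC3 losses and other tumour suppressors, 6 were at least 2-fold higher and 0 lower, with a list median of 1.11 against -0.48 for all probes. Besides STAT3, those past 2-fold included the repair genes BRCA2 (1.39) and BRCA1 (1.12) and the Wnt antagonist APC (1.10). RB1, the brake on S phase entry, had 446, 539 and 349 counts in the libraries labelled BTN1A1 and 373, 470 and 419 in EV, a difference of 0.05. CDKN2A, which encodes the cyclin kinase inhibitor p16, stood at 0.16. In edgeR 6 of the 11 were higher and 0 lower.

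**Figure D2:**
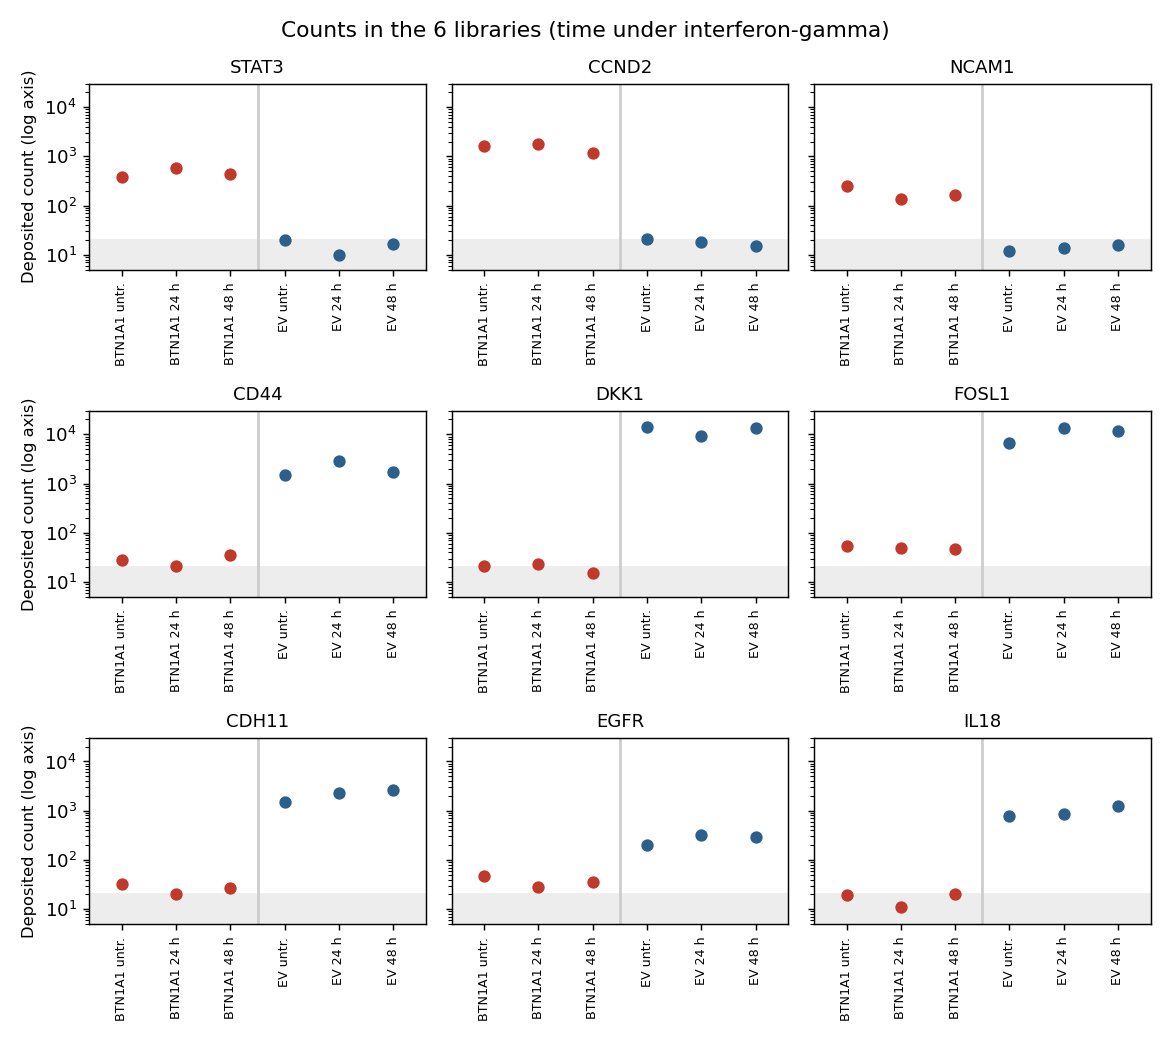
Deposited counts (vertical, log axis) of 9 genes in each of the 6 libraries, red for those labelled BTN1A1 and blue for EV, in the order untreated, 24 h and 48 h of interferon-gamma. The grey band marks counts under 20. In each of the 9 genes the 3 libraries of 1 vector lie apart from the 3 of the other, STAT3 at 383 to 593 counts in the libraries labelled BTN1A1 against 10 to 20 in EV.

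Among genes of carcinoma cell identity, 4 of 6 epithelial and 6 of 14 mesenchymal probes were at least 2-fold lower in the library labelled BTN1A1, with 0 and 1 higher. CD44, the hyaluronan receptor used as a marker of invasive prostate cells, had 28, 21 and 35 counts in the libraries labelled BTN1A1, against 1478, 2892 and 1722 in EV. CDH11, the osteoblast cadherin, had 33, 20 and 27, against 1504, 2241 and 2694 in EV. CDH1 (E-cadherin), which joins epithelial cells, had 28, 26 and 31, against 185, 197 and 145 in EV, and the epithelial adhesion molecule EPCAM had 39, 29 and 59, against 235, 242 and 210 in EV. All 4 stood near background in the libraries labelled BTN1A1, with EPCAM reaching 59 counts at 48 h, and none overlapped between the vectors. The untreated differences were -5.93 for CD44 (60.9-fold), -5.72 for CDH11 (52.6-fold), -2.93 for CDH1 (7.62-fold) and -2.80 for EPCAM (6.95-fold). The edgeR differences were -6.19, SE 0.44, adjusted p 4.5e-05 for CD44, -6.37, SE 0.38, adjusted p 2.95e-05 for CDH11, -2.69, SE 0.37, adjusted p 0.000692 for CDH1 and -2.55, SE 0.39, adjusted p 0.00118 for EPCAM.

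Of 35 listed epithelial genes 6 are on the panel. In edgeR 4 of these were lower and 0 higher, and LAMB3, a chain of the basement membrane laminin of epithelia, was among them (-3.54, at least 11.6-fold). Of 15 mesenchymal genes on the panel 14 were compared, with 7 between and a median of -0.81 (5 lower and 1 higher in edgeR). The receptor kinase AXL (at least 16.4-fold lower) and the ectonucleotidase NT5E (at least 14.4-fold lower) were among the 6. CDH2 (N-cadherin) kept high counts on both sides, 679, 578 and 557 in the libraries labelled BTN1A1 and 968, 1005 and 712 in EV, a difference of -0.72. The repressor ZEB2, a driver of mesenchymal programmes, went the other way, with 306, 248 and 214 counts in the libraries labelled BTN1A1 against 34, 34 and 27 in EV (2.96, edgeR 2.93, SE 0.32, adjusted p 0.000215), while its relative ZEB1 stood at -0.13.

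Some genes of the largest higher differences were well above background in the library labelled BTN1A1 and at or near it in EV. NCAM1, the neural cell adhesion molecule, had 249, 135 and 163 counts in the libraries labelled BTN1A1, against 12, 14 and 16 in EV (at least 11.1-fold, edgeR 3.58, SE 0.39, adjusted p 0.000227). The receptor kinase KIT, the receptor of stem cell factor, had 321, 201 and 235, against 30, 25 and 13 in EV (9.28-fold, edgeR 3.42, SE 0.39, adjusted p 0.000284). The pluripotency factor SOX2 had 79, 85 and 61, against 12, 8 and 7 in EV (at least 3.52-fold, edgeR 2.97, SE 0.37, adjusted p 0.000416). The orphan receptor GPR160 had 759, 472 and 556, against 44, 68 and 51 in EV (3.90), and the cancer-testis antigen MAGEB2 278, 500 and 283, against 19, 24 and 29 in EV (at least 12.4-fold). Counts of SOX2 stayed under 100 in all 6 libraries, the least of these genes. SOX2 was outside the rule for named genes and was chosen after its values had been seen. The related factor SOX11 stood at -0.41, SE 0.33, adjusted p 0.374 in edgeR, and the stem cell surface gene PROM1 at -0.18, SE 0.32, adjusted p 0.71.

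Matrix and adhesion genes, like the panel as a whole, had more lower than higher probes. THBS1, a matrix protein that restrains vessel growth, had 19, 10 and 20 counts in the libraries labelled BTN1A1, against 1614, 1947 and 1481 in EV (at least 83.0-fold lower, edgeR -6.76, SE 0.43, adjusted p 3.49e-05). ITGA6, the laminin receptor chain of epithelial cells, had 267, 204 and 242, against 2573, 3343 and 3098 in EV (11.1-fold lower, edgeR -3.73, SE 0.29, adjusted p 5.53e-05). The collagen chain COL6A3 was at least 23.1-fold lower. The collagenase MMP1 had 7, 9 and 12, against 434, 57 and 48 in EV (at least 22.3-fold lower in the untreated pair). Its EV count was far higher without interferon-gamma than with it. In contrast, the proteoglycan VCAN had 640, 487 and 514, against 44, 72 and 44 in EV (3.66, edgeR 3.31, SE 0.34, adjusted p 0.00017), and the embryonic laminin chain LAMA1 209, 108 and 140, against 22, 24 and 16 in EV (3.04). The libraries of the vectors did not overlap for any of these 6 genes, all picked for large untreated differences.

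Of 14 matrix and protease probes compared, 6 were lower (42.9%) and 2 higher (14.3%), VCAN and LAMA1 being the higher ones. Of 22 integrin and adhesion probes, 8 were lower (36.4%) and 2 higher (9.09%), and 12 lay between. Among all 672 probes 27.8% were lower and 11.3% higher. The median of each list was -0.63, against -0.48 for all probes. ITGB8 (at least 13.2-fold), ITGA1 (12.6-fold) and the leukocyte adhesion ligand ICAM3 (12.1-fold) were lower, and ITGA4, the chain of the VCAM1 receptor, was higher (at least 4.37-fold). ITGA1 had 45, 50 and 47 counts in the libraries labelled BTN1A1, against 491, 190 and 182 in EV, so its EV count was highest without interferon-gamma. In edgeR 3 of 14 matrix genes were lower and 2 higher, and 9 of 21 adhesion genes lower and 3 higher. Among all probes tested by edgeR 30.6% were lower and 11.7% higher.

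Some genes of growth factor signalling through EGFR and the MAP kinases had differences among the lowest, though their list as a whole did not stand apart from the panel. FOSL1, an AP-1 subunit that this pathway induces, had 53, 48 and 46 counts in the libraries labelled BTN1A1, against 6704, 13216 and 11467 in EV. The untreated difference was -7.19 (146-fold, counting interval -7.61 to -6.80), and -7.75, SE 0.35, adjusted p 8.84e-06 in edgeR. AREG, which encodes the EGFR ligand amphiregulin, had 24, 22 and 25, against 1042, 530 and 2970 in EV (50.1-fold lower, from a count at background). EGFR itself had 47, 28 and 36, against 202, 324 and 292 in EV (4.96-fold lower, edgeR -2.94, SE 0.37, adjusted p 0.000445), and the hepatocyte growth factor receptor MET 672, 492 and 492, against 3482, 4627 and 4877 in EV (5.98-fold lower). Among feedback genes, the ERK phosphatase DUSP5 had 51, 94 and 46, against 2400, 840 and 1694 in EV (54.3-fold lower). The RAS antagonist SPRY4 had 10, 8 and 11, against 585, 328 and 310 in EV (at least 30.1-fold lower). All 6 were lower in every library labelled BTN1A1 than in any EV library.

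The pathway did not move as 1 block. Of 26 probes compared, 10 were lower and 4 higher, and 12 lay between (8 lower and 3 higher of 27 in edgeR). The list median was -0.50, against -0.48 for all probes. The RAS GTPase genes were split: NRAS had 954, 1422 and 792 counts in the libraries labelled BTN1A1, against 304, 402 and 334 in EV (1.44, at least 2-fold higher in all 3 pairs), while HRAS was 2.36-fold lower. DUSP1, a phosphatase of stress kinases, was 3.59-fold higher in the untreated pair alone. Its counts were 601, 388 and 384 in the libraries labelled BTN1A1 and 145, 446 and 506 in EV, and it did not pass in edgeR (0.38, SE 0.46, adjusted p 0.573). Of the 5 immediate early genes 3 were lower and 2 higher: IER3, a survival gene (-4.71), and the zinc finger factor EGR1 (-1.34) were the other lower ones. EGR1 did not pass in edgeR (-0.19, SE 0.45, adjusted p 0.774). MYC, the growth-promoting factor, had 2223, 2048 and 1525, against 880, 977 and 1177 in EV (1.13, edgeR 0.86, SE 0.26, adjusted p 0.0308), and lost its edgeR call in 3 of 13 other settings. ATF3 is described with the amino acid genes.

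Notch, Wnt and TGF-beta genes each had members far apart in opposite directions. In the Notch pathway, where cells signal to their neighbours through bound ligands, the ligand genes JAG1 and DLL1 differed in opposite directions. JAG1 had 56, 41 and 45 counts in the libraries labelled BTN1A1, against 1032, 533 and 1153 in EV (21.3-fold lower, edgeR -4.26, SE 0.32, adjusted p 4.69e-05). DLL1 had 153, 96 and 128, against 15, 21 and 14 in EV (at least 6.82-fold higher, edgeR 2.82, SE 0.40, adjusted p 0.000896). The target gene HEY1 had 6156, 3934 and 3923, against 535, 571 and 1650 in EV (9.97-fold higher, edgeR 2.46, SE 0.40, adjusted p 0.00175), and its EV count was highest at 48 h. Of 9 Notch probes compared 2 were higher, 3 lower and 4 between (4 higher and 1 lower in edgeR), and the receptors NOTCH1 (-0.03) and NOTCH2 (0.41) and the target HES1 (0.55) were among the last.

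DKK1, a secreted inhibitor of Wnt receptors made by PC3 cells, had the largest difference of all probes. It had 21, 23 and 15 counts in the libraries labelled BTN1A1, against 14004, 9203 and 13264 in EV, a difference of -9.49 (at least 720.0-fold lower, edgeR -9.33, SE 0.37, adjusted p 5.79e-06). It was among the 10 most abundant probes of the EV library and at background in the library labelled BTN1A1. The receptor FZD8 had 58, 60 and 45, against 1321, 750 and 709 in EV (26.3-fold lower), and the ligands WNT7B (at least 7.76-fold) and WNT5A (4.46-fold) were lower. WNT2B was 2.69-fold higher at 87, 32 and 72 counts against 28, 12 and 9 in EV. Of 14 Wnt probes 5 were lower, 1 higher and 8 between, with CTNNB1 (beta-catenin) at -0.52.

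TGF-beta and BMP genes had 5 of 12 probes lower, ligands and a receptor among them, 1 higher and 6 between. TGFB2 had 39, 35 and 33 counts in the libraries labelled BTN1A1, against 356, 735 and 646 in EV (10.5-fold lower), and the receptor TGFBR2 74, 77 and 95, against 585, 430 and 430 in EV (9.12-fold lower, edgeR -2.61, SE 0.33, adjusted p 0.000439). LTBP1, which stores latent TGF-beta in the matrix, was 9.27-fold lower, and the activin subunit INHBA at least 6.94-fold lower. ID4, an inhibitor of basic helix-loop-helix factors and a BMP target, was higher, with 318, 304 and 229 counts in the libraries labelled BTN1A1 against 24, 13 and 18 in EV (11.5-fold higher, edgeR 3.89, SE 0.36, adjusted p 9.43e-05). In edgeR 5 of the 12 were lower and 3 higher, the ligand BMP2 (1.23, SE 0.34, adjusted p 0.02) and the receptor TGFBR1 (0.83, SE 0.26, adjusted p 0.037) besides ID4. The plot of identity and signalling genes sets these differences beside those of the treated pairs.

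**Figure D3:**
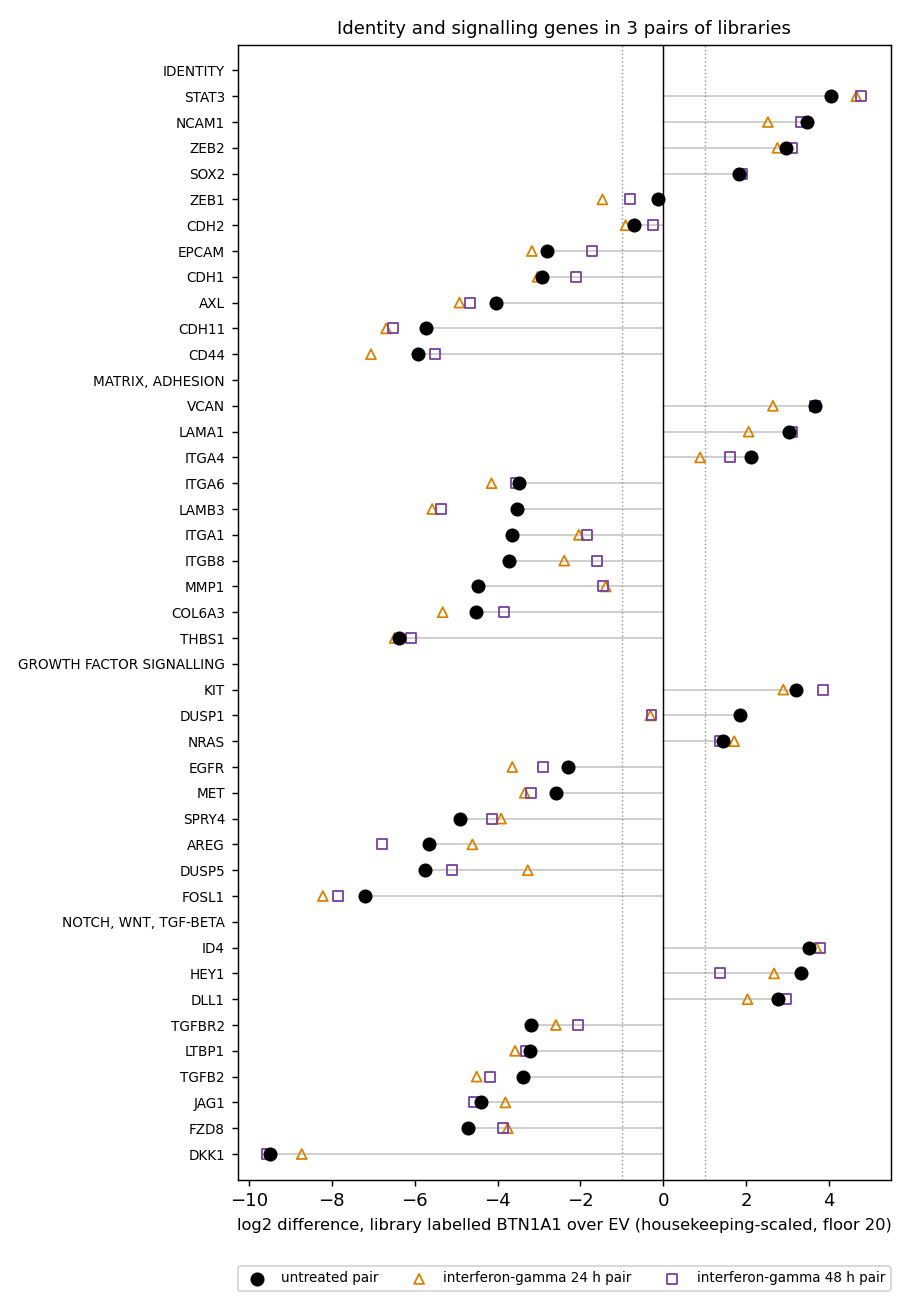
log2 differences of the library labelled BTN1A1 over EV (horizontal) for identity, matrix, growth factor and Notch, Wnt and TGF-beta genes, in the untreated pair (black dots) and the pairs with interferon-gamma for 24 h (triangles) and 48 h (squares). Dotted lines mark 2-fold. DKK1 lies at -9.49 in the untreated pair, and DUSP1 lies to the right of 0 in the untreated pair and to the left in both treated pairs.

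Regulators of AKT and mTOR, the kinases that couple growth to nutrients, were mostly within 2-fold: 2 of 13 probes were higher, 2 lower and 9 between. DEPTOR, a protein that binds and restrains mTOR, had 264, 164 and 225 counts in the libraries labelled BTN1A1, against 36, 30 and 16 in EV (6.36-fold higher, edgeR 2.94, SE 0.41, adjusted p 0.000813). EIF4EBP1, the translation repressor that mTOR inactivates, was 3.01-fold higher in the untreated pair but not past the edgeR threshold (0.80, SE 0.31, adjusted p 0.0736). Its EV count reached 2587 at 48 h of interferon-gamma, against 2998 in the library labelled BTN1A1. The kinase SGK1 (4.08-fold) and the mTOR partner RPTOR (2.52-fold) were lower, MTOR stood at 0.49 and AKT1 at -0.72. PRKAA2, a catalytic subunit of the energy sensor AMPK and outside the lists, had 536, 271 and 430, against 86, 70 and 77 in EV (5.40-fold higher).

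In the cell cycle CCND1 and CCND2, D-type cyclins that act in G1, differed in opposite directions. CCND2 had 1656, 1825 and 1197 counts in the libraries labelled BTN1A1, against 21, 18 and 15 in EV, the largest higher difference of all probes (6.10, 68.4-fold, edgeR 6.35, SE 0.33, adjusted p 1.75e-05). CCND1 had 308, 509 and 268, against 1839, 3137 and 2189 in EV (6.89-fold lower, edgeR -2.81, SE 0.26, adjusted p 9.43e-05), and the partner kinase CDK6 765, 729 and 533, against 202, 288 and 164 in EV (3.28-fold higher). CCND1 and CCND2 were separate between the vectors in all 3 conditions. A further D-type cyclin, CCND3, did not pass in edgeR (-0.50, SE 0.32, adjusted p 0.267). Of 25 drivers 6 were higher, 5 lower and 14 between. Genes of mitosis were among the last, such as the proliferation marker MKI67 (-0.29), the anaphase activator CDC20 (-0.34) and cyclin CCNB1 (-0.48). The nuclease EXO1 (1.68) and the chromatin remodeller HELLS (1.44) were higher, the thymidylate synthase TYMS (-1.48) and the survivin gene BIRC5 (-1.18) lower.

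BBC3, a trigger of mitochondrial death, had 306, 136 and 199 counts in the libraries labelled BTN1A1, against 28, 24 and 37 in EV (9.47-fold higher, edgeR 2.72, SE 0.35, adjusted p 0.000517). Within 2-fold, the kinase inhibitor gene CDKN1A stood at 0.87, the death receptor gene FAS at 0.79 and BAX at -0.86. CDKN2B, a TGF-beta induced inhibitor of CDK4 and CDK6, was 3.46-fold lower in the untreated pair but not past the edgeR threshold (-1.05, SE 0.51, adjusted p 0.14), and its EV counts ran from 65 to 338 over the conditions. Of the list's 7 kinase inhibitor and stress target probes 2 were higher, BBC3 and the pocket protein gene RBL2 (1.15), and 1 lower.

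DNA repair genes included members far apart in both directions. MGMT, which removes alkyl groups from guanine, had 30, 24 and 27 counts in the libraries labelled BTN1A1, against 251, 202 and 173 in EV (9.65-fold lower, edgeR -3.00, SE 0.35, adjusted p 0.00029), and the damage histone H2AFX was 4.99-fold lower. RAD50, of the double-strand break complex, was 4.55-fold higher (881, 688 and 649 counts against 168, 234 and 225 in EV), as were the helicase BLM (3.64-fold) and FANCA (2.57-fold). The mismatch recognition gene MSH6 stood at 0.92. Of 16 repair probes 3 were higher, 3 lower and 10 between.

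Metabolic genes differed by pathway. Amino acid genes had 6 of 12 probes higher and 0 lower, with a list median of 0.99 against -0.48 for all probes (5 higher and 1 lower in edgeR). BCAT1, which moves the amino group of branched-chain amino acids, had 847, 509 and 498 counts in the libraries labelled BTN1A1, against 44, 19 and 44 in EV (16.7-fold higher, edgeR 4.08, SE 0.34, adjusted p 6.41e-05). The mitochondrial arginase ARG2 had 685, 490 and 595, against 77, 40 and 38 in EV (7.71-fold higher, edgeR 3.50, SE 0.34, adjusted p 0.00012). The glutamine transporter SLC1A5 had 3193, 2409 and 2356, against 741, 734 and 1842 in EV (3.74-fold higher), the glutamine synthetase GLUL was 2.52-fold higher and the glutamate dehydrogenase GLUD1 2.56-fold higher. Deposited counts did not overlap between the vectors for these 5 genes. Scaled counts of SLC1A5 met at 2052 in the 24 h library labelled BTN1A1 and 2090 in the 48 h EV library.

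The differences of ATF3 and PCK2 were largest in the untreated pair, smaller at 24 h and gone at 48 h. At 24 h the counts were still higher in the library labelled BTN1A1, 280 against 117 for ATF3 and 227 against 100 for PCK2. ATF3, a factor induced by amino acid and other stress, had 1063, 280 and 665 counts in the libraries labelled BTN1A1 and 69, 117 and 690 in EV, so that it was 13.4-fold higher without interferon-gamma and level at 48 h (0.06). PCK2, the mitochondrial enzyme that makes phosphoenolpyruvate, had 717, 227 and 494 in the libraries labelled BTN1A1 and 157, 100 and 501 in EV, 3.96-fold higher without interferon-gamma and level at 48 h (0.09). Neither passed in edgeR (1.57, SE 0.67, adjusted p 0.098 for ATF3, 1.04, SE 0.39, adjusted p 0.0664 for PCK2). In both genes the EV counts at 48 h of interferon-gamma overlapped the range of the libraries labelled BTN1A1.

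The lactate dehydrogenase genes LDHA and LDHB, whose subunits make up 1 tetramer, went opposite ways. LDHA had 5652, 13827 and 4261 counts in the libraries labelled BTN1A1, against 16488, 32990 and 19527 in EV (-1.75, 3.37-fold lower, edgeR -1.73, SE 0.23, adjusted p 0.000629). LDHB had 11315, 12362 and 7754, against 3452, 4447 and 2953 in EV (1.51, 2.84-fold higher, edgeR 1.46, SE 0.22, adjusted p 0.00103). The pyruvate kinase PKM was 4.10-fold lower and the hexokinase HK1 2.98-fold lower. Of 15 glycolysis probes 3 were lower, 1 higher and 11 between, and the aldolase ALDOA (-0.05), the triose isomerase TPI1 (-0.53) and the glucose transporter SLC2A1 (-0.33) were within 2-fold.

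HIF1A, the oxygen-regulated factor that drives many glycolysis genes, had 1008, 1097 and 748 counts in the libraries labelled BTN1A1, against 5916, 6087 and 9332 in EV (6.77-fold lower, edgeR -2.96, SE 0.28, adjusted p 0.000118). Of 19 hypoxia and angiogenesis probes 8 were lower and 2 higher (10 and 2 of 19 in edgeR). The lymphatic growth factor VEGFC had 61, 43 and 44, against 657, 1410 and 1613 in EV (12.4-fold lower), and the protease receptor F2RL1 163, 158 and 127, against 2981, 858 and 1199 in EV (21.1-fold lower). The collagen hydroxylase P4HA1 (-2.02) and the mitophagy gene BNIP3 (-1.21) were also lower, while VEGFA stood at 0.23 and ADM at 0.58. ARNT2, a partner of HIF proteins in neural tissue, was 3.84-fold higher, and the receptor FLT1 2.20-fold higher. On the list of mitochondrial and lipid genes 6 of 8 probes were lower and 0 higher, with a median of -1.86 (4 lower and 0 higher in edgeR). The list also holds nucleotide enzymes, NT5E and TYMP, so these counts do not stand for mitochondrial and lipid genes alone. NT5E, its lowest member (-3.85), is also counted among the mesenchymal genes and the checkpoint ligands. PPARG, the fat cell factor, had 385, 205 and 296, against 1982, 1311 and 1972 in EV (5.94-fold lower, edgeR -2.66, SE 0.26, adjusted p 0.000135), the thromboxane synthase TBXAS1 was 8.39-fold lower and the thymidine phosphorylase TYMP at least 5.30-fold lower.

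Cell death genes differed in which BCL2 protein was measured. BCL2L1, which encodes the survival protein BCL-XL, had 188, 166 and 137 counts in the libraries labelled BTN1A1, against 2370, 3043 and 2695 in EV (14.5-fold lower, edgeR -4.12, SE 0.28, adjusted p 4.33e-05). BCL2 had 103, 52 and 65, against 27, 27 and 22 in EV (3.31-fold higher, edgeR 1.41, SE 0.35, adjusted p 0.0124). The adaptor FADD (3.54-fold), the initiator CASP8 (at least 4.42-fold) and the BCL-XL antagonist BAD (3.48-fold) were lower, and the initiator CASP9 (-0.24) lay within 2-fold. Of 11 probes compared 4 were lower and 1 higher (5 and 1 in edgeR).

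**Figure D4:**
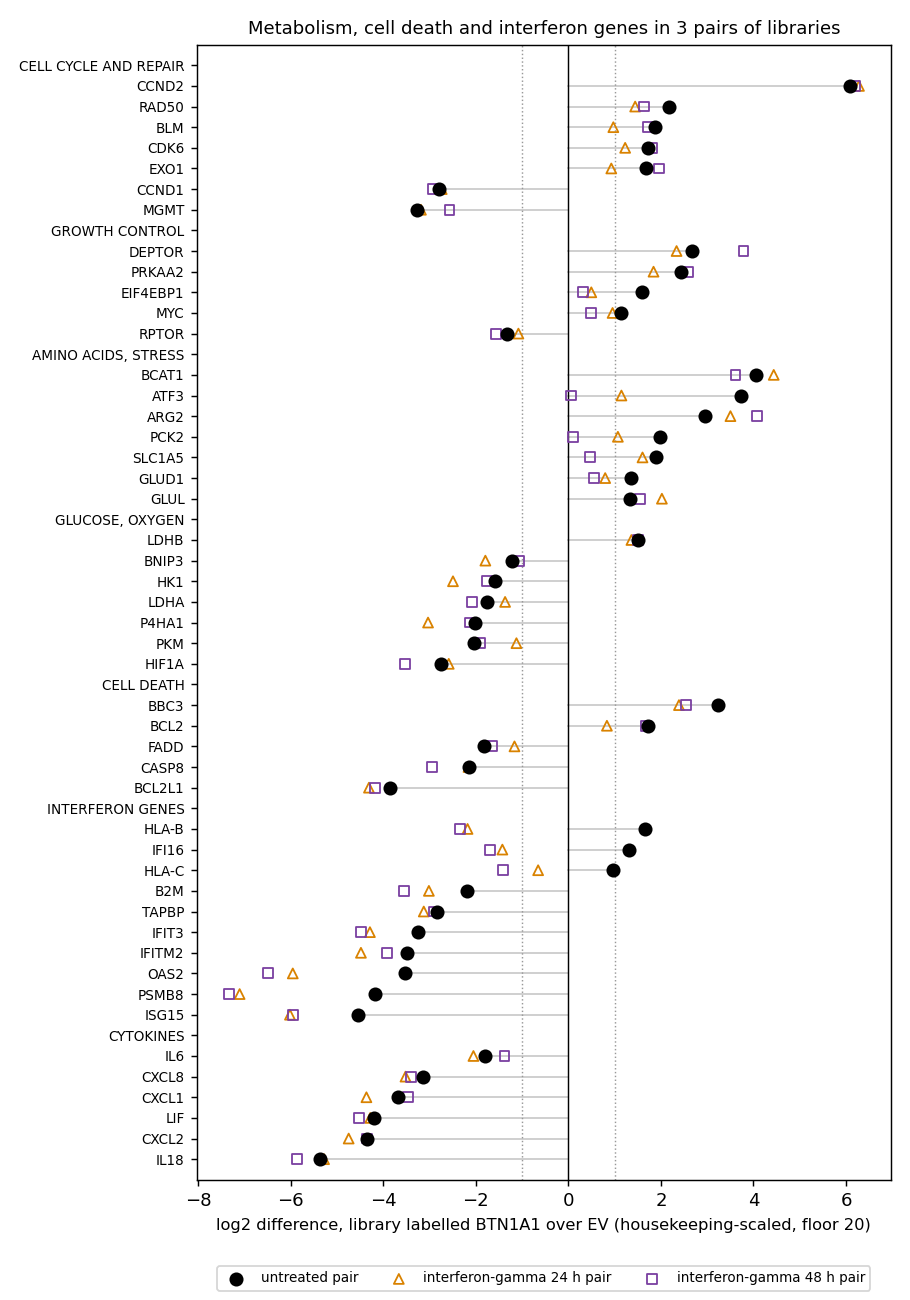
log2 differences of the library labelled BTN1A1 over EV (horizontal) for cell cycle, growth control, amino acid, glucose, cell death, interferon and cytokine genes, in the untreated pair (black dots) and the pairs with interferon-gamma for 24 h (triangles) and 48 h (squares). Dotted lines mark 2-fold. CCND2 lies beyond 6 in all 3 pairs, while ATF3 and PCK2 lie near 0 in the 48 h pair and HLA-B and IFI16 change sides.

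Interferon-stimulated genes were lower in the library labelled BTN1A1 before any interferon-gamma was added. ISG15, a ubiquitin-like antiviral protein, had 66, 85 and 85 counts in the libraries labelled BTN1A1, against 1342, 5087 and 5710 in EV (23.5-fold lower in the untreated pair, edgeR -5.52, SE 0.41, adjusted p 4.56e-05). IFITM2, which blocks virus entry, had 112, 88 and 94, against 1085, 1819 and 1544 in EV (11.2-fold lower). OAS2, a sensor of double-stranded RNA, had 5, 11 and 10, against 226, 1347 and 1574 in EV (at least 11.6-fold lower), and the DNA sensor cGAS (MB21D1 on the panel) 23, 21 and 33, against 312, 565 and 406 in EV (15.6-fold lower). No library labelled BTN1A1 reached the untreated EV count of these 4 genes. Of 36 antiviral probes compared 21 were at least 2-fold lower and 1 higher, with a list median of -1.31, and 2 more were below 20 scaled counts in both libraries. The higher one, the DNA-binding IFI16, had 397, 505 and 429, against 138, 1255 and 1491 in EV, so its order was turned round in both treated pairs. In edgeR 27 of 35 were lower and 0 higher, a count that also holds the response of EV cells to interferon-gamma.

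Many antiviral genes carry in their promoters the element bound by interferon-activated factors. The stretches below show matches to a motif for it. They are from matching antiviral genes with at least 100 scaled counts in the higher library, those with the largest lower differences. Not every lower gene with a match is shown. The motif, GAAA followed by any 2 bases and a further GAAA, was sought on both strands, overlaps allowed, in RefSeq windows of 250 bases before to 50 after each gene start (GRCh38.p14). It was in 18 of the 28 antiviral genes that matched a window, and in 58.3% of their 36 windows, against 8.86% of the windows of all panel genes and 3.57% of all 35116 windows. Of 13 matched genes at least 2-fold lower it was in 11. A match is a description of letters and not a site. Capitals mark the matches, read 5′ to 3′ on the gene's strand:
ISG15 (chr1:1013359-1013424, plus strand): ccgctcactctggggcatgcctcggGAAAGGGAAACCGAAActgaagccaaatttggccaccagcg
IFIT3 (chr10:89327816-89327909, plus strand): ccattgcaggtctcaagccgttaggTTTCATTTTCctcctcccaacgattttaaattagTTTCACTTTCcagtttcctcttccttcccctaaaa
OAS3 (chr12:112938306-112938496, plus strand): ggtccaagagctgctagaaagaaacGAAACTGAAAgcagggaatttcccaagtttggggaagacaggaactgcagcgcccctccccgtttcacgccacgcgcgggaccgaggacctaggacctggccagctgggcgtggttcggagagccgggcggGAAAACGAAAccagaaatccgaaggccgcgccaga
PARP12 (chr7:140062927-140062986, minus strand): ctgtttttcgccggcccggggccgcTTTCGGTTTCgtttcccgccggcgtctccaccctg
PARP9 (chr3:122564307-122564366, minus strand): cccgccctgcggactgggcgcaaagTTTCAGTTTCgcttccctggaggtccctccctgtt

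The untreated differences of these genes were -3.25 for IFIT3, -2.95 for OAS3, -2.50 for PARP12 and -2.33 for PARP9, beside -4.55 for ISG15. The ISG15 matches overlap in 1 run, and those of IFIT3 lie apart. The motif was also in genes that differed less, such as EIF2AK2, the kinase PKR (-0.17), and IFIH1 (-0.10).

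HLA class I genes, which carry peptides to T cells, were not lower as 1 family. The light chain B2M had 1240, 2226 and 1773 counts in the libraries labelled BTN1A1, against 4908, 16630 and 22469 in EV (4.57-fold lower in the untreated pair, edgeR -2.92, SE 0.31, adjusted p 0.000211). HLA-B had 799, 669 and 832, against 219, 2801 and 4540 in EV, and was 3.16-fold higher without interferon-gamma (edgeR -1.13, SE 0.81, adjusted p 0.319, not past the threshold). HLA-C had 284, 407 and 316, against 126, 592 and 908 in EV, just under 2-fold higher at 0.97. With interferon-gamma EV exceeded the libraries labelled BTN1A1 for both genes. Probes of these genes can bind related copies, and alleles can bind a probe unequally, so single class I genes are uncertain. The immunoproteasome subunit PSMB8 was at least 18.1-fold lower and TAPBP, which helps load peptides, 7.18-fold lower, while PSMB9 stood at -0.97. Of 17 class I and loading probes 6 were lower, 1 higher and 10 between, and in edgeR 12 of 18 were lower and 0 higher. Of 12 class II probes 0 were lower and 2 higher, HLA-DMB (at least 3.97-fold) and HLA-DQB1 (1.32), both under 100 counts in the library labelled BTN1A1. Neither passed in edgeR (0.37, SE 0.61, adjusted p 0.7 for HLA-DMB, 0.83, SE 0.49, adjusted p 0.222 for HLA-DQB1), where 5 class II genes were lower and 0 higher over the 3 conditions. CD74 stood at -0.54.

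The receptor and kinase genes of interferon-gamma signalling were measured on both sides. IFNGR1, its ligand-binding chain, had 870, 601 and 650 counts in the libraries labelled BTN1A1, against 188, 227 and 223 in EV (4.01-fold higher, edgeR 1.65, SE 0.28, adjusted p 0.00229). IFNGR2, the signalling chain, stood at -0.98, JAK1 at 0.29 and JAK2 at -1.01. IRF1, an early target of the pathway, had 75, 482 and 313, against 169, 5153 and 6174 in EV (2.60-fold lower without interferon-gamma). IRF7, a factor of type I interferon responses, was 7.56-fold lower and IRF9 2.99-fold lower, whereas IRF8 was at least 2.59-fold higher at 58, 167 and 149 counts against 18, 6 and 9 in EV. Of 21 JAK-STAT probes 7 were lower and 2 higher (10 and 3 in edgeR), and STAT3 is counted with the PC3 losses. Of 27 NF-kB and TNF probes 8 were lower (29.6%, near the 27.8% of all probes) and 0 higher. MYD88, the adaptor of Toll-like and IL-1 receptors, had 3, 2 and 20, against 377, 654 and 420 in EV (at least 19.4-fold lower, edgeR -6.13, SE 0.73, adjusted p 0.000376), with RIPK1 (4.58-fold) and the adaptor TICAM1 (4.41-fold) lower. The subunits RELA (-0.31) and NFKB2 (0.34) were within 2-fold.

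Some cytokines measured in EV were near background in the library labelled BTN1A1. IL18 had 19, 11 and 20 counts in the libraries labelled BTN1A1, against 797, 843 and 1258 in EV (at least 41.0-fold lower, edgeR -5.92, SE 0.35, adjusted p 2.95e-05). LIF, an IL-6 family cytokine, had 38, 17 and 32, against 602, 422 and 796 in EV (18.3-fold lower). The neutrophil chemokines CXCL2 (at least 20.3-fold), CXCL1 (at least 12.8-fold) and CXCL8 (8.78-fold) were lower. IL6 had 27, 21 and 37, against 82, 90 and 104 in EV (3.50-fold lower), and IL1B 3, 13 and 9, against 78, 62 and 90 in EV (at least 4.01-fold lower). IL1A was at background in both. Of 40 cytokine probes compared 13 were lower (32.5%, against 27.8% of all probes), 0 higher and 27 between, and 8 more were under the level in both libraries (19 lower and 1 higher of 39 in edgeR). The complement component C5 had 22, 19 and 24, against 442, 87 and 137 in EV (at least 22.7-fold lower), the 1 of 4 complement probes past 2-fold.

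Most checkpoint ligands were low on both sides without interferon-gamma. CD274, which encodes PD-L1, had 14, 7 and 18 counts in the libraries labelled BTN1A1, against 18, 64 and 92 in EV, and both untreated libraries were under the level of 20 scaled counts. IDO1, the tryptophan-degrading enzyme, had 34, 26 and 37, against 56, 7385 and 10306 in EV (-0.93 without interferon-gamma). Of 11 probes compared 3 were lower and 0 higher: NT5E, ICOSLG (-1.22) and LGALS9 (-1.13, not past the edgeR threshold at -0.34, SE 0.36, adjusted p 0.527). The B7 family member CD276 stood at 0.56. Among 9 chromatin regulators the methyltransferase EZH2 was higher (1.11, not past the edgeR threshold at 0.63, SE 0.28, adjusted p 0.111) and the deacetylases HDAC4 (-1.48) and HDAC11 (-1.17) and the acetyltransferase KAT2B (-1.25) lower. KAT2B did not pass in edgeR either (-0.59, SE 0.32, adjusted p 0.186). With TMM scaling 0 of the 9 chromatin regulators were at least 2-fold lower and 3 higher, so these lower differences depended on the scaling.

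The ribosomal protein genes RPL23 and RPL7A took 27.8% of all counts in the untreated library labelled BTN1A1 and 5.27% in the untreated EV library. RPL23 had 52182, 37221 and 38971 counts in the libraries labelled BTN1A1, against 9303, 10538 and 6707 in EV (4.86-fold higher), and RPL7A 28581, 18104 and 20613, against 5784, 6173 and 3756 in EV (4.28-fold higher). Totals therefore do not stand for the amount of the other RNAs, which is why housekeeping genes were used for scaling. Markers of T and NK cells had 0 of 22 probes higher and 2 lower, those of B and myeloid cells 0 of 39 higher and 7 lower, and those of endothelium and fibroblasts 0 of 8 higher and 1 lower. The myeloid gene S100A9, which epithelial cells can also express, had 11, 35 and 5 counts in the libraries labelled BTN1A1, against 140, 93 and 106 in EV (at least 7.20-fold lower). None of these markers was listed at 0, and their part in the other results was not tested.

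**Figure D5:**
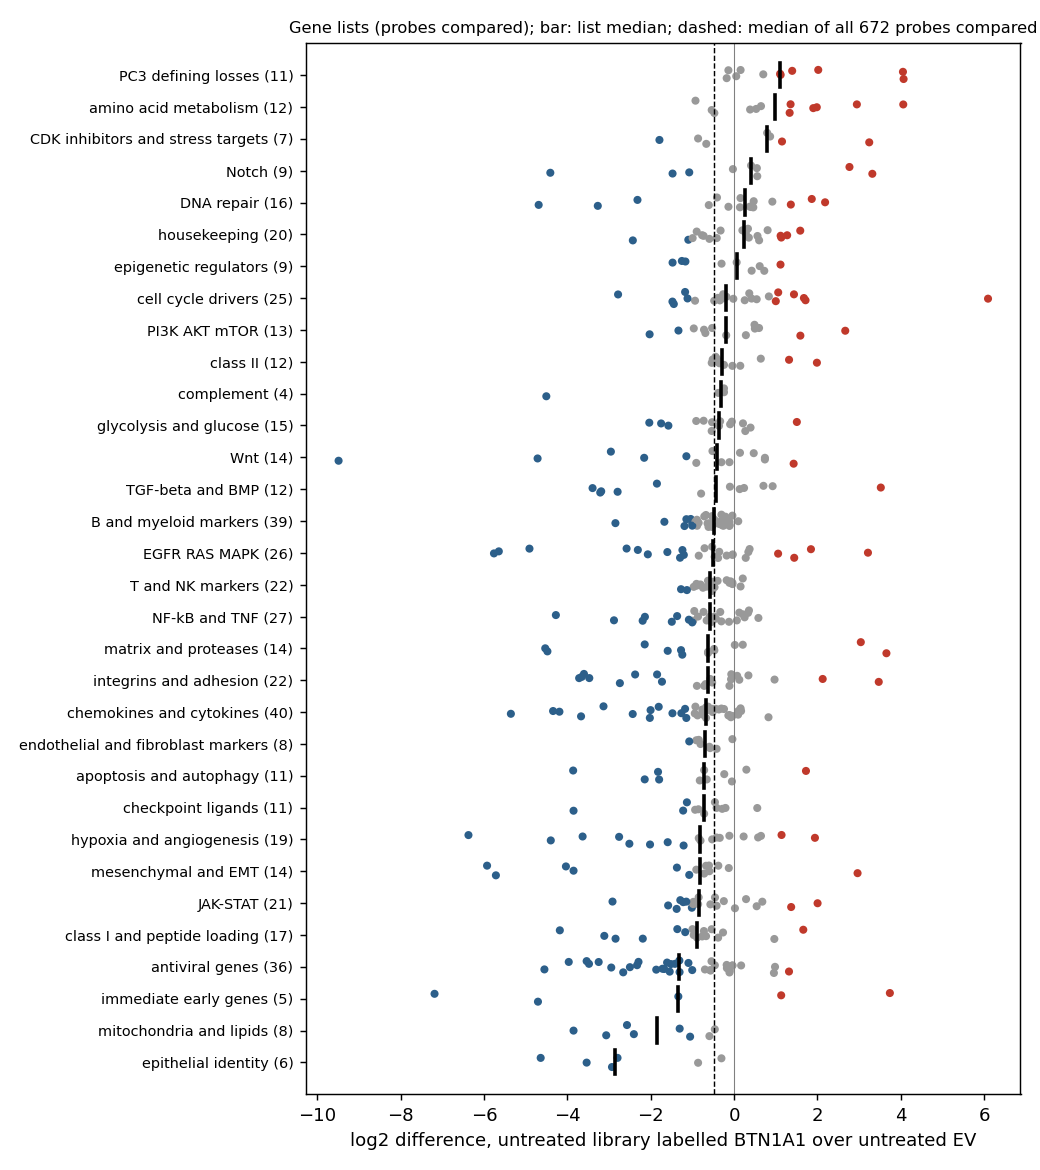
log2 differences of the untreated library labelled BTN1A1 over untreated EV (horizontal) for the members of 32 gene lists, with the number of probes compared in brackets. Each point is a probe, red at least 2-fold higher and blue at least 2-fold lower, black bars are list medians, and the dashed line is the median of all 672 probes, -0.48. The epithelial list has the lowest median and the list of PC3 losses the highest.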

How the data were processed

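The authors deposited whole-number barcode counts of 770 probes in 6 libraries, 1 per group, from RNA hybridised to the nCounter panel per the labels' protocols. All 4620 values were whole numbers with differing totals per library, and no scaling was seen. Software, probe annotation and any scaling rounded before deposit are not given in the sources used here. Probe symbols were kept as deposited; 756 were current in the RefSeq gene table, 6 matched it as synonyms and 8 did not match. Promoter sequences are RefSeq's, build GRCh38.p14.

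Counts were divided by each library's geometric mean of 20 housekeeping genes and values under 20 raised to 20. The untreated pair was compared by log2 difference, with no test. Intervals are exact binomial 95% intervals of the count ratio and cover counting error only. The vector term used edgeR 4.0.16 (R 4.3.3, glmQLFit and glmQLFTest), with condition as covariate, library sizes from the housekeeping genes, and only probes that reached 20 scaled counts in 2 or more libraries. Adjusted p is Benjamini-Hochberg over 669 probes, with a threshold of 0.05. On simulated counts for 676 genes, this fit called 37.9% of the genes changed 2-fold and 100% of those changed 4-fold or 16-fold, with 5 false calls among 476 unchanged genes. The simulation gave every gene the same dispersion (0.102), left the housekeeping genes unchanged and held no effect of interferon-gamma. Its rates therefore need not hold for these data. Limma 3.58.1 and DESeq2 1.42.0 were alternatives.

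Named were the 15 largest differences each way with at least 100 scaled counts, up to 4 members each way of 32 gene lists with at least 50, and a fixed set of identity and interferon genes. Other genes given as examples, such as those within 2-fold, were chosen after their values had been seen. Some named genes are not reported here, but stay in the counts. The comparison and the lists were chosen with earlier results of these data known.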

Additional observations from a re-analysis of the deposited data

Results flagged for a closer look

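HLA-B, an HLA class I heavy chain, was higher in the untreated library labelled BTN1A1 than in EV by 1.66 on the log2 scale, and lower by -2.18 at 24 h and -2.34 at 48 h of interferon-gamma. IFI16, a DNA sensor, was higher by 1.32 without interferon-gamma and lower by -1.43 at 24 h and -1.69 at 48 h. Both stand out because the single untreated pair and both treated pairs lay past 2-fold in opposite directions, the 2 probes of the 76 higher ones for which this held. The difference between the pairs was not tested.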

How the results depend on the processing

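The balance of higher and lower probes depended on the scaling. In the untreated pair, scaling to equal medians gave 116 higher and 120 lower probes and TMM scaling 113 and 118, so that 49.2% and 48.9% of the probes past 2-fold were higher, against 28.9% with all housekeeping genes. Scaling by the 8 housekeeping genes closest to their median ratio gave 59 higher and 273 lower. A 3-fold threshold gave 43 higher and 109 lower, as fewer probes reach it. Of the probes past the threshold in the untreated pair, those repeated in both treated pairs numbered 70 higher with total count scaling, 68 higher with equal medians, and 23 higher and 82 lower at 3-fold. The other settings stayed within 1.5 times the counts in the report, including a floor of 50 and background subtraction. Counts within lists shifted as well. With TMM scaling 2 of 21 JAK-STAT probes were lower and 4 higher, 1 of 9 Notch probes lower and 3 higher, and 0 of 9 chromatin regulators lower and 3 higher. Epithelial genes kept 4 of 6 lower and 0 higher, and antiviral genes had 16 of 34 lower and 3 higher.

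The edgeR vector term gave 120 higher and 150 lower probes with total count scaling, and 112 and 156 with TMM, so that 44.4% and 41.8% of the calls were higher against 27.6%. DESeq2 gave 96 and 229, and limma 79 and 189. Leaving out each library gave 55 to 86 higher and 153 to 213 lower, and the 4 interferon-gamma libraries alone, which leave out the untreated pair, gave 86 and 212. Of 154 named genes tested, 131 were called, 110 of them in each of 13 other settings, and 0 changed direction. Over all 669 probes tested 283 were called. Most named genes were picked for large untreated differences, and most settings include that pair, so these counts are no separate check. Among the 21 named genes that lost a call were MYC, CD274 and BIRC5 in 3 settings each, IDO1 and HDAC4 in 4 and ICOSLG in 5. The least steady calls were those of a T and NK marker, lost in 10 settings, and of a housekeeping gene, lost in 7. The causes were not tested. No paired analysis was possible because the labels give no replicate numbers and each group is 1 library, other than the match by condition that the edgeR fit already holds. Probes under the level of 20 scaled counts in 1 library carry bounds, not values. Folds of probes just above it, such as AREG, CD44, CDH11, CDH1, MGMT and cGAS, are loose too. Background markers reached 50 counts in the untreated library labelled BTN1A1.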
